A study of Mus musculus with 3 samples.

Results

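The genes of the GATA family were examined in a map of GATA4 binding in the adult mouse stomach, made by chromatin pull-down and sequencing. A peak was taken as a member when the deposited annotation named Gata1, Gata2, Gata3, Gata4, Gata5, Gata6 or Gata6os as its nearest gene. This gave 56 of the 50869 peaks, which belonged to 6 of the 7 genes. Gata6os appears in the deposited annotation under its older name and was found by its gene identifier. The endodermal genes, Gata4, Gata5 and Gata6 with the antisense transcript Gata6os, held 44 of these peaks. The genes known from blood cells, Gata1, Gata2 and Gata3, held 12.

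All libraries came from stomach mucosa of mice aged 10 to 12 months with the genotype G4fb/fb R26 Bira/Bira. In these mice both copies of Gata4 encode a protein with a Flag and biotin tag, and the biotin ligase BirA, which biotinylates the tag, is encoded at the R26 (Rosa26) locus. There were 2 libraries of GATA4 chromatin captured on streptavidin beads and 1 input library of the same genotype. The input shares its code with the first pull-down, and the labels do not say whether the pull-downs came from separate animals. Input was the sole control here, and no library came from mice without the tag. The authors pooled both pull-downs into a single list, from 38770530 tags against 23023152 input tags after filtering, so no value has a replicate error and no test between samples was possible. The number of cells in which a site was bound and how fully it was bound in each cell cannot be told apart in such bulk chromatin, and no marker of a cell type was measured.

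GATA factors are zinc finger proteins that bind the DNA letters GATA. GATA4, GATA5 and GATA6 act in the heart and in organs that arise from endoderm, including the stomach, where GATA4 and GATA6 are present in the glandular epithelium. GATA1 drives the formation of red cells and platelets, GATA2 maintains blood stem and progenitor cells and mast cells, and GATA3 directs T cell development. GATA factors are known in several tissues to bind their own genes and those of their relatives. The peaks at the family's own genes were therefore compared between the endodermal and the blood members.

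Promoter sequences were available for 4 of the 7 genes from RefSeq on build GRCm38.p6. The 250 bases before each start are shown for their base composition. They lie at chr2:180334680-180334929 on the minus strand for Gata5, at chr6:88193641-88193890 and chr6:88198414-88198663 on the plus strand for the 2 starts of Gata2, at chr2:9878601-9878850 on the minus strand for Gata3 and at chrX:7967911-7968160 on the minus strand for Gata1. Each is written 5′ to 3′ toward the start, and capitals mark CpG dinucleotides.
Gata5: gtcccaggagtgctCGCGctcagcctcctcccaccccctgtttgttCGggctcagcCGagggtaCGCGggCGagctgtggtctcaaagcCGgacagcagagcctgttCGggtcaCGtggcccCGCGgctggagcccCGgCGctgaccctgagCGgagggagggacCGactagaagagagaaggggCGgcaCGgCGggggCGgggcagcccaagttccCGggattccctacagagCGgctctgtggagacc
Gata2, upstream start: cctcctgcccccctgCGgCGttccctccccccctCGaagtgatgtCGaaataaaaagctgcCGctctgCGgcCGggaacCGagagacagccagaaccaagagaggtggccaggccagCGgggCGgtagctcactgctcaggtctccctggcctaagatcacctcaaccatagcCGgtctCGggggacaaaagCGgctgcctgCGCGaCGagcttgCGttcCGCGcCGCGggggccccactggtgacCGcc
Gata2, downstream start: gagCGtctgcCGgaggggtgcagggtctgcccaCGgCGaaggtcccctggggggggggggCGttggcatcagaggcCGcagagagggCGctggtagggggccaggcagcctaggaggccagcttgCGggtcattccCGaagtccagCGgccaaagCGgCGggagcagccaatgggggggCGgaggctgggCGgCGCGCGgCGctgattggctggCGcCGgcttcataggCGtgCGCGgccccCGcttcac
Gata3: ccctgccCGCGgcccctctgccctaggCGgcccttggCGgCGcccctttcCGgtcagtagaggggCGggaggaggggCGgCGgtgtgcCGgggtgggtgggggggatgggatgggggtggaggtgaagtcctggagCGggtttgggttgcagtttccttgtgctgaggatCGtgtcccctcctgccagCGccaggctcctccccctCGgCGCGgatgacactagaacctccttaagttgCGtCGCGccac
Gata1: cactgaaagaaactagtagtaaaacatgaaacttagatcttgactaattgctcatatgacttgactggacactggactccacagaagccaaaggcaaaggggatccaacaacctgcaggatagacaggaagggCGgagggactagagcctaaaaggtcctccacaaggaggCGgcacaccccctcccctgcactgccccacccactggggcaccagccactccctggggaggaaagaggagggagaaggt

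The promoters of Gata5, Gata2 and Gata3 were rich in CpG and that of Gata1 was not. The Gata5 window held 22 CpG dinucleotides at 70.0% G plus C, the Gata2 windows 22 and 24, and the Gata3 window 19. The Gata1 window held 2. Over all 32851 promoter windows of this length the median was 6, and 14.8% held as many as Gata5 while 81.2% held as many as Gata1. None of the 5 windows held the GATA motif, searched on both strands with the letters AGATAA and also the letters AGATAG, then with the letters TGATAA and also the letters TGATAG. Of all windows, 26.5% held it. The absence of these letters from a window says nothing of binding there. Across the 27025 genes of that table, 74.4% of those with at least 10 CpG in a window had a GATA4 peak credited within 1 kb of the start, against 12.2% of the others. That limit of 10 was chosen after the values were seen.

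The peaks are on another build, mm9, and positions were not carried over, so only distances to the start of the gene are comparable. In mm9 a peak lay across the Gata5 start, from base -442 to base 180 relative to it. At the Gata2 start used by the annotation a peak ran from base -42 to base 239. The peak nearest the Gata3 start ran from base -1123 to base -849 and did not reach it. The 2 Gata2 starts lie 4773 bases apart, and which of them the mm9 annotation used was not settled here.

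Gata4, which encodes the pulled-down factor itself, was credited with more peaks than any other single gene of the family and with the highest fold. The locus shared by Gata6 and Gata6os had more peaks in all, 18, and a peak with more tags. Gata4 had 16 peaks, a number that 0.80% of the 17712 genes with any peak reached. Counted by position, 7 peaks lay within 10 kb of the Gata4 start and 15 within 50 kb, which 3.81% and 11.6% of the 15899 genes with a recovered start matched. Their fold enrichment over input, the authors' ratio of pull-down to local input at the summit, ran from 3.07 to 16.8 with a median of 4.80. Over all 50869 peaks the median was 4.37. Peaks of at least 8-fold numbered 4 of 16 at Gata4, where 4.21% of all peaks reach that level.

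The strongest Gata4 peak (mm9 chromosome 14, 63874270 to 63875509) was an intergenic CpG island 10.8 kb upstream of the start. It rested on 83 pull-down tags at the summit (exact Poisson 95% interval 66.1 to 102.9, counting error of the pooled libraries only) and reached 16.8-fold, rank 33 in the whole list. Among the 1184 intergenic peaks annotated as CpG islands it ranked 1, and their median was 4.92-fold. The next highest fold at Gata4 was 9.30.

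The other strong Gata4 peaks lay on both sides of the start and reached similar folds. The peak in exon 2 of 7 (63859310 to 63859972), 4.47 kb into the gene, had 45 tags (32.8 to 60.2) and 9.30-fold. The peak 19.5 kb upstream (63883408 to 63883832) had 44 tags (32 to 59.1) and 9.04-fold. The promoter peak (63863940 to 63864722) had 42 tags (30.3 to 56.8) and 8.70-fold. The tag intervals of these 3 overlap one another, and all 3 end below the interval of the peak at 10.8 kb.

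A looser run of weaker peaks continued upstream of Gata4. Of its 16 peaks, 11 lay upstream, 10 were intergenic and 3 were annotated as CpG islands, and they spanned 93.1 kb in all. A peak 26.4 kb upstream had 48 tags, more than the exon 2 peak, but stood on a local input level of 5.0 scaled tags with the caller's 1 included, so its fold was 5.90. At the exon 2 peak that level was 2.98. The far peaks 80.1 and 81.1 kb upstream reached 4.26-fold and 4.12-fold. One more peak inside the last intron of Gata4 (63819838 to 63820037) was credited to the neighbouring DNA repair gene Neil2, at 3.96-fold.

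**Figure D1:**
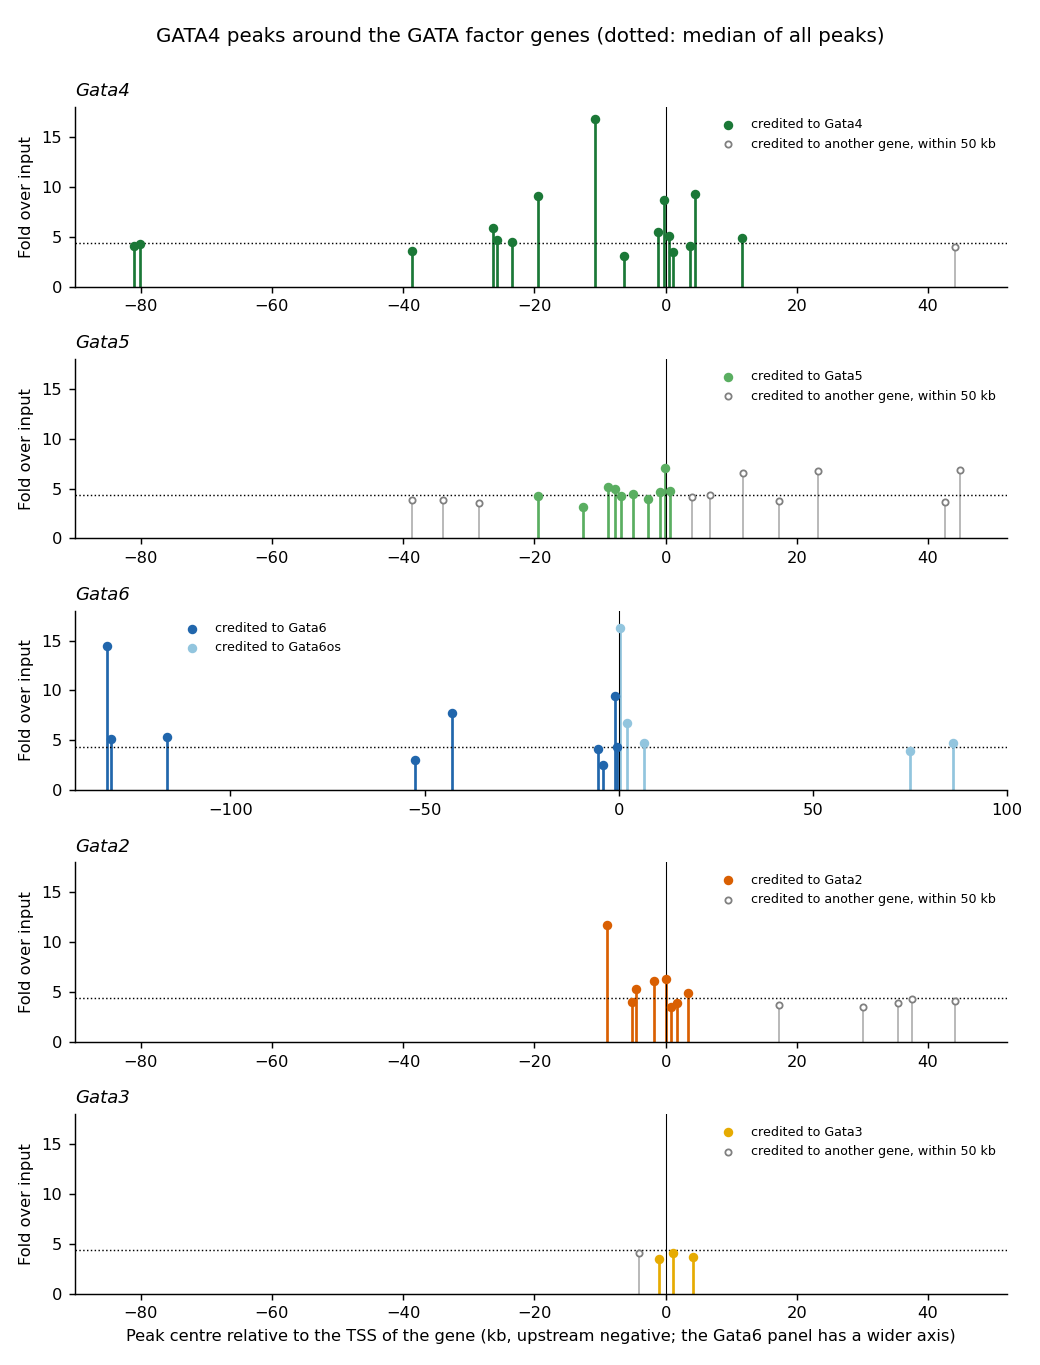
Fold over input of each peak (vertical axis) against the distance of its centre from the start of the gene in kb (horizontal axis, upstream negative), for Gata4, Gata5, Gata6, Gata2 and Gata3. Coloured points are peaks credited to the gene and, in the Gata6 panel, also those credited to Gata6os. Open points are those within 50 kb credited to another gene, and the dotted line is the median of all peaks, 4.37. Peaks more than 100 kb past the Gata6 start and the Gata3 peak 339.8 kb away are not drawn. Tall peaks stand 10.8 kb upstream of Gata4, 131.7 kb upstream of Gata6 and 8.99 kb upstream of Gata2. Another, credited to Gata6os, stands at the start of Gata6.

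The Gata6 locus had peaks close in fold to the strongest of Gata4, at its start and far upstream. Gata6 encodes the other GATA factor of gastric glands, and Gata6os is a noncoding transcript that runs in the opposite direction from nearly the same start, so peaks upstream of Gata6 were credited to Gata6 and peaks past its start to Gata6os. The recovered starts lay at 11052508 and 11052565 of chromosome 18. The 18 peaks of the pair therefore describe a single locus, and 2 of the 3 peaks annotated in Gata6 itself, in exons 2 and 3, were credited to Gata6os.

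The peak over the shared start (11052266 to 11053612) had the most tags of all 56 members, at 108 (88.6 to 130.4). It reached 16.3-fold with a local input level of 4.0 and ranked 17 in the whole list by −log10 q-value, at 55.0. A second peak 1.01 kb upstream (11051285 to 11051707) had 62 tags (47.5 to 79.5) and 9.45-fold. Between them, a peak 0.517 kb upstream, in the promoter class, had 20 tags (12.2 to 30.9) and 4.32-fold.

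The distal Gata6 peaks formed separate groups. The one centred 131.7 kb upstream (10920551 to 10921000) had 71 tags (55.5 to 89.6) and 14.5-fold, with a 5.12-fold neighbour at 130.8 kb. A peak 43.0 kb upstream (11009368 to 11009652) had 37 tags and 7.70-fold. These distal peaks lay outside annotated CpG islands and repeats. On the other side of the start, 4 peaks credited to Gata6os lay 291.1 to 321.1 kb away, at 2.69-fold to 5.71-fold, and 1 of these was in an L1 repeat.

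The lowest fold among the 56 peaks also belonged to Gata6. A CpG island peak 3.95 kb upstream had 32 tags, as many as the peak in exon 2, but stood on a local input level of 8.0 and reached 2.50-fold. The exon 2 peak stood on 2.98 and reached 6.71-fold. Equal pull-down coverage thus gave folds apart by the input alone.

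**Figure D2:**
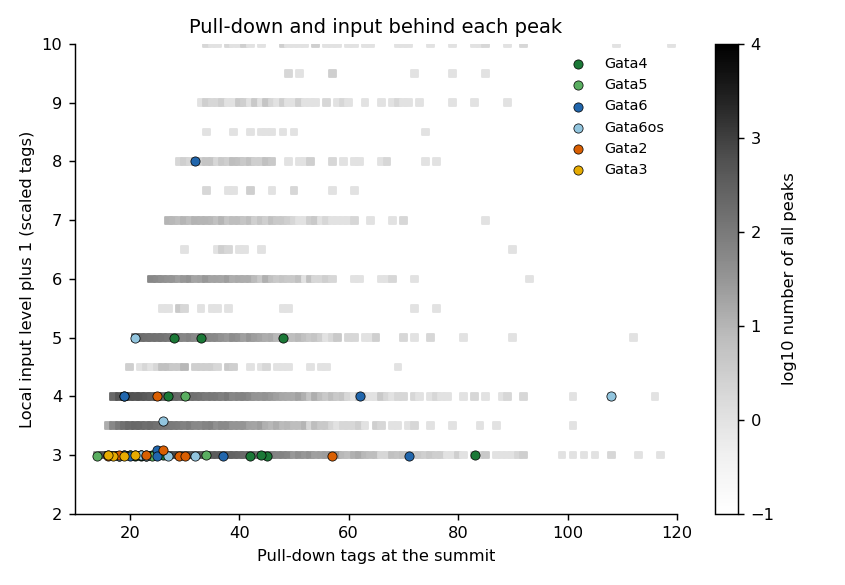
Pull-down tags at the summit (horizontal axis) and local input level plus 1 in scaled tags (vertical axis) of the GATA gene peaks in colour, over all peaks with up to 120 tags and an input level up to 10 in grey, shaded by log10 number. Most members sit on the lowest input level near 3, and the Gata6 peak with 32 tags stands out at 8.0.

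Gata5 had many peaks but none of the strongest class. Gata5 is a further member of the endodermal group and is known from heart, gut and bladder. Its 10 peaks, a number reached by 3.31% of genes with a peak, ran from 3.12-fold to 7.06-fold with a median of 4.59. The promoter peak (mm9 chromosome 2, 180069204 to 180069826) had 34 tags (23.5 to 47.5) and 7.06-fold. The next highest, 8.74 kb upstream, had 24 tags (15.4 to 35.7) and 5.11-fold, and the 2 tag intervals overlap.

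The peaks of Gata5 were packed closely, but less so than those of Gata2, whose median gap between neighbours was 1.03 kb. The Gata5 peaks spanned 20.5 kb with a median gap of 1.5 kb, and 8 of 10 lay within 10 kb of the start. Peaks further into the body and beyond the gene were credited to another antisense transcript, Gata5os, whose 5 peaks are not among the members. Those 5 included 2 in introns of Gata5, at 4.12-fold and 4.32-fold, and peaks 11.8 and 23.2 kb past the Gata5 start at 6.51-fold and 6.71-fold. Counted by position alone, 10 peaks lay within 10 kb of the Gata5 start and 20 within 50 kb, the most of any member, and 0.89% and 5.20% of genes had as many. Gata6 had 7 and 8 in these windows (3.81% and 30.0%), Gata2 8 and 13 (2.30% and 15.2%), and Gata3 4 and 4 (16.7% and 54.7%).

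Gata2 had the most peaks of the blood genes and their strongest. It had 8 peaks within 12.9 kb, all within 10 kb of the start. At least 5-fold were 4 of the 8 (exact binomial interval 15.7 to 84.3%), which includes the 30.3% of all peaks. The strongest (mm9 chromosome 6, 88139294 to 88140039) was an intergenic CpG island 8.99 kb upstream with 57 tags (43.2 to 73.9) and 11.7-fold. It ranked 198 of all peaks by fold and 7 among intergenic CpG island peaks, the class that the 16.8-fold peak of Gata4 led. The tag interval of this Gata2 peak overlaps that of the Gata4 peak.

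The rest of the Gata2 peaks filled the stretch from that island into the gene. The promoter peak (88148616 to 88148897) had 30 tags (20.2 to 42.8) and 6.31-fold. A peak 1.77 kb upstream was 1389 bases long, the longest of all members, at 6.11-fold. The peaks 4.58 and 5.07 kb upstream reached 5.32-fold and 3.96-fold, and those in introns and exon 3 of the gene reached 3.52-fold to 4.89-fold. The 5.32-fold peak ran from base -4897 to base -4269. It would lie across the other Gata2 start if the annotation used the downstream one. Of the 8 peaks, 5 were annotated as CpG islands, against 7.67% of all peaks. The next peaks downstream, 17.3 to 44.1 kb past the start, were credited to the chaperone gene Dnajb8 and reached 3.5-fold to 4.32-fold.

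Gata3 had only weak peaks. Its 4 peaks ran from 3.5-fold to 4.49-fold with a median of 3.92, and none reached 5-fold. The highest (mm9 chromosome 2, 9460312 to 9460472) lay 339.8 kb away in an L1 repeat, with 21 tags (13.0 to 32.1). The peak nearest the start by its centre, in the promoter class (9801076 to 9801350), had 16 tags (9.15 to 26) and 3.5-fold, and those in exons 2 and 3 had 19 and 17 tags. A further peak 4.05 kb upstream was credited to the noncoding transcript 4930412O13Rik, at 4.12-fold. The tag intervals of all 4 Gata3 peaks overlap one another.

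Gata1 was named for no peak, where 73.7% of protein-coding genes over all chromosomes were named for at least 1. Peaks on the X, where Gata1 lies, were weaker than elsewhere. At least 5-fold were 20.1% of its 1723 peaks, against 30.7% of those on other chromosomes. On the X chromosome the nearest peaks on either side were credited to Eras and to Suv39h1. The Eras peak (mm9 chromosome X, 7514358 to 7514537) lay in exon 19 of 29 of Hdac6 at 4.49-fold. The Suv39h1 peak (7651275 to 7651515) lay at its promoter at 4.72-fold. The 136.7 kb between these peaks held none, and by the order of genes in the RefSeq table Gata1 and Glod5 lie between them. Gaps of that length were common on the X, where 23.3% of 1722 gaps were as long and the median was 53.8 kb.

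**Figure D3:**
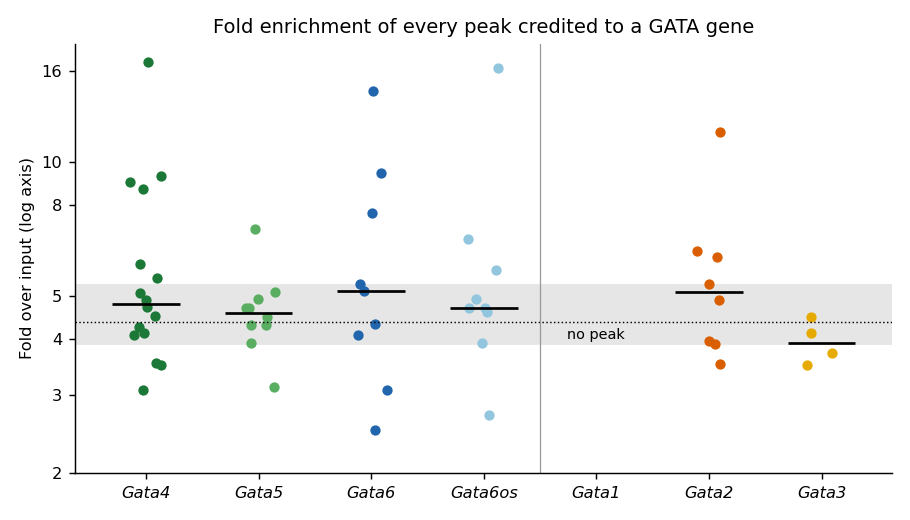
Fold over input on a log axis of every peak credited to each gene, with a bar at the gene's median, the endodermal genes left of the vertical line and the blood genes right of it. The grey band spans the quartiles of all peaks, 3.9 to 5.28, and the dotted line is their median of 4.37. Gata4, Gata6, Gata6os and Gata2 each have at least 1 peak above 10-fold, Gata5 and Gata3 have none, and Gata1 has no peak.

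Set against each other, the endodermal genes differed from the blood genes more in the number of peaks than in their typical fold. The gap in number was smaller by position, with 24 endodermal and 12 blood peaks within 10 kb of a start. The 44 endodermal peaks had a median of 4.70-fold (binomial 95% interval of the median 4.32 to 5.11), and the 12 blood peaks 4.30-fold (3.72 to 6.11), so the intervals overlap. At least 5-fold were 17 of the 44, or 38.6% (exact binomial 95% interval 24.4 to 54.5), and 4 of the 12, or 33.3% (9.92 to 65.1), where 30.3% of all peaks were. Both shares lie near that of all peaks. These intervals treat peaks as independent, which peaks of 1 locus are not, and no test was made.

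At higher thresholds the endodermal shares stood further above those of all peaks. At least 8-fold were 7 of 44 endodermal peaks, or 15.9%, and 1 of 12 blood peaks, or 8.33%. Of all peaks, 4.21% reached that level. In the top 10% by −log10 q-value, which with ties left out held 9.86% of all peaks, were 10 of 44 (22.7%, exact binomial interval 11.5 to 37.8) and 1 of 12 (8.33%, 0.21 to 38.5). The single blood peak in each count was that 8.99 kb upstream of Gata2. The blood share therefore rests on 1 peak, and its interval spans that of the endodermal genes.

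Among peaks centred over 1 kb from a start, the endodermal shares were higher than those of the list, and the blood shares rested on Gata2 alone. Peaks over 1 kb from a start are weak in this list: 18.7% of 34727 reached 5-fold, 1.52% reached 8-fold and 3.82% were in the top 10% by q-value. Of the 37 endodermal peaks at such distances, 13 reached 5-fold, 5 reached 8-fold and 7 were in the top 10%. Each of these counts includes the 9.45-fold Gata6 peak centred 1.01 kb upstream. It ran from base -1223 to base -801 and so crossed the 1 kb limit. Of the 9 blood peaks, 3 reached 5-fold, all at Gata2, and 1 of these reached 8-fold and the top 10%. Another of the 3, at 5.32-fold, may lie at the other Gata2 start. The endodermal and blood shares at 5-fold were 35.1% and 33.3%, and no difference was tested. Only 15.9% of endodermal peaks were within 1 kb of a start, compared with 31.7% of all peaks.

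**Figure D4:**
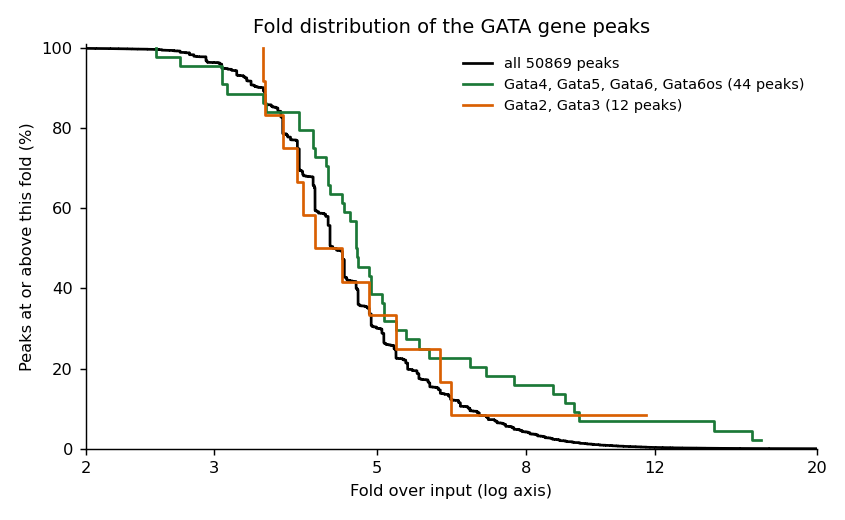
Percentage of peaks at or above each fold (vertical axis) against fold over input on a log axis, for all 50869 peaks, the 44 endodermal peaks and the 12 blood peaks. At 5-fold, 38.6% of endodermal peaks, 33.3% of blood peaks and 30.3% of all peaks remain, and at 8-fold 15.9%, 8.33% and 4.21% do.

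Gene by gene, the family did not split along the line between endoderm and blood. A peak within 10 kb of the start was credited to Gata2, Gata3, Gata4, Gata5 and Gata6 and not to Gata1, against 64.4% of 21031 protein-coding genes. At least 8 peaks were credited to Gata2, Gata4, Gata5 and Gata6, against 4.4% of those genes. A peak of at least 8-fold was credited to Gata2, Gata4 and Gata6, against 8.89% of those genes. Gata5 thus had the number without the height, and Gata3 had neither. Genes with wide intergenic flanks can be credited with more peaks, and in fixed windows, as given above, the counts stood out less at 50 kb than at 10 kb.

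**Figure D5:**
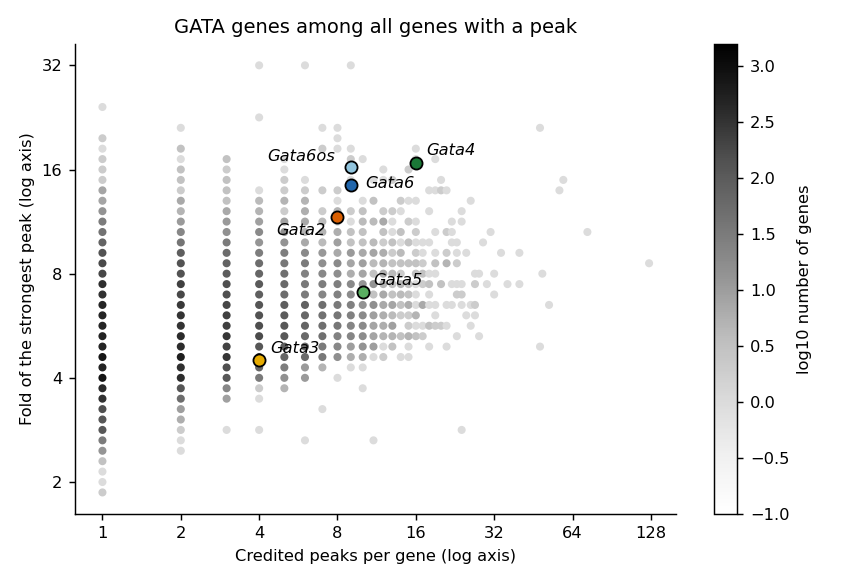
Number of credited peaks (horizontal log axis) and fold of the strongest peak (vertical log axis) for every gene with a peak, in grey shaded by log10 number of genes, with the GATA genes in colour. Gata4 sits at 16 peaks and 16.8-fold, Gata6, Gata6os and Gata2 at 8 or 9 peaks and 11.7-fold to 16.3-fold, Gata5 at 10 peaks and 7.06-fold, and Gata3 at 4 peaks and 4.49-fold.

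The position of the members and the input beneath them varied as well. Intergenic sequence held 30 of the 56 peaks, or 53.6%, against 31.2% of all peaks. Introns held 10, exons 7 and the promoter class 7, against 15909, 6455 and 8456 of all 50869 peaks. Repeats held 5 of 56, or 8.93%, against 19.5% of all peaks. The median length of 278.5 bases was close to the 268 of all peaks. The genome-wide input level in the authors' call was 1.98 scaled tags, which with the 1 added by the caller gives the value near 3 beneath 41 of the 56 members and 70.5% of all peaks. At such sites the fold follows the pull-down tags alone.

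Known partners of the GATA factors were also credited with peaks, in both lists. Of 19 genes that work with GATA4 to GATA6 in heart or endoderm, all had a peak, 18 had one within 10 kb and 5 had one of at least 8-fold. Over all protein-coding genes these shares were 73.7%, 64.4% and 8.89%. These were Zfpm1 (the GATA cofactor FOG1, 21.7-fold), Klf5 (a Krüppel-like factor of gut epithelium, 11.02-fold), Foxa2 (a pioneer factor of endoderm, 10.1-fold at a site 76.6 kb away), Srf (9.50-fold) and Smarca4 (the remodelling ATPase BRG1, 8.30-fold). Mef2c, a heart and muscle factor, had its only peak 317.0 kb away, at 2.64-fold. Of 12 genes that work with GATA1 to GATA3 in blood, all had a peak within 10 kb, and 6 had one of at least 8-fold, to be read beside the same 64.4% and 8.89%.

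Those 6 were Zfpm1, which is in both lists, Cbfa2t3 (a corepressor, 15.7-fold), Runx1 (13.4-fold), Tal1 and Lyl1 (related factors of blood progenitors, both 8.70-fold) and Tcf3 (8.10-fold). The 8.70-fold peak credited to Lyl1 lay in an intron of Nfix. The median strongest fold was 6.47 in the first list and 6.91 in the second, against 5.32 over all 17712 genes with a peak. The median fold of their peaks was 4.56 over 129 peaks and 4.41 over 127, against 4.37 over all peaks. Zfpm1 alone supplied 48 peaks to each list, with a median of 4.23, and Lyl1 supplied 19 to the second. The medians over peaks therefore weigh these genes most. The blood list was thus higher in the median of the strongest folds and lower in the median over peaks, and neither difference was tested.

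The genes most like Gata4, Gata5 and Gata6 were sought by percentile of 3 measures, the number of peaks, the strongest fold and the median fold, among 10715 other genes with at least 2 peaks in this 1 pooled list. Nearest to Gata4 were Bcl9l (24 peaks, strongest 12.5-fold), Zbtb7a (18 peaks, 14.1-fold) and Acvr2a (12 peaks, 11.7-fold). Nearest to Gata5 were A730056A06Rik, Gpt and Nr2f1, each with 10 peaks and a strongest fold of 6.91 to 7.06. Nearest to Gata6 were Vstm2l, the mucin gene Muc1 and Smad5, each with 9 peaks and strongest folds of 10.8, 18.5 and 17.3. For Gata6 only the 9 peaks credited to it by name were used, without those of Gata6os at the same locus. The summed percentile differences were 0 to 3.64.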

How the data were processed

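GATA4 pull-down (2 libraries) and input (1 library) came from mouse stomach mucosa. Bowtie2, MACS2, HOMER and build mm9 are named in the submitters' processing notes. Per the file headers, MACS2 2.1.0.20140616 called peaks on the pooled pull-downs against the input at a q-value limit of 0.05, kept 1 tag per position, scaled the larger set down by 0.594 and extended tags to 161 bases. The deposited pileup gives coverage as a signal of scaled tags, the deposited fold is a ratio to local input with 1 added to both, and the −log10 q-value and the annotation score derived from it are the authors' too. Dividing pileup by the scaling factor gave whole tags within 0.02 for all 50869 peaks. Of the tags, 35.0% of the pull-down and 18.1% of the input were removed as redundant.

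Gene names were matched by gene identifier to RefSeq (GRCm38.p6), 99.9% of peaks matching. Starts were recovered from peak centres and signed distances. Named in full are peaks of at least 8-fold and, per gene, the strongest and the nearest to the start. The members and gene lists were chosen with earlier results of these data known. Intervals cover counting error only. Python 3.11.15, pandas 2.3.3 and scipy 1.17.1 were used. Alternatives varied the peak threshold, fold threshold, gene assignment, distance, repeats, the measure of strength and Gata6os.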

Additional observations from a re-analysis of the deposited data

How the results depend on the processing

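Of 60 alternative values, 41 stayed within their limits (1.5 times for a count, the main binomial interval for a median or share) and 19 did not. The 41 include values of the blood group without Gata6os, which could not move because Gata6os is not in that group. With a −log10 q-value of at least 5, there were 19 endodermal and 4 blood peaks, with median folds of 6.71 and 6.21. Of these, 52.6% of the endodermal ones and 1 of the 4 blood ones were in the top 10%. Such a limit raises these shares by construction, since it removes only peaks outside the top 10%. The share of all peaks at this limit was not computed, so 52.6% has no comparator here. With a −log10 q-value of at least 10, there were 10 and 1, all of at least 5-fold and all (100%) in the top 10% by construction, with medians of 9.17 and 11.7. Counting every peak within 10 kb of a start gave 24 endodermal and 12 blood peaks, 9 and 4 of them at least 5-fold. Within 50 kb there were 43 and 17. A fold of at least 4 counted 35 and 7, and of at least 8 counted 7 and 1. Strength by summit pileup gave 19 and 4 in place of 17 and 4. The endodermal count was above the blood count in each setting, but the gap narrowed within 10 kb of a start. No replicate could be left out, since the call pools both pull-downs. No paired analysis was possible because the pooled call gives no value per library. Depth limits weak peaks: one of 16 tags carries an interval of 9.15 to 26, for counting error of the pull-down alone.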

Other observations

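Of 5 other genes with a GATA-type zinc finger, 3 were credited with a peak, where 73.7% of protein-coding genes were. Gatad2a, which encodes a subunit of the NuRD complex, had 3 peaks, the strongest 8.70-fold in its first exon, 0.37 kb from the start. Gatad1 had 1 peak of 6.76-fold in its first exon. Trps1, a repressor that binds GATA sites, had 10 peaks, of which 1 lay within 10 kb of the start and the strongest, at 5.71-fold, lay 759.5 kb away. Gatad2b and Zglp1 were the nearest gene of none.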
